A study of Rattus norvegicus with 12 samples.

Results

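The plasticiser di(2-ethylhexyl) phthalate (DEHP) was given at 1 µg/ml, the lowest dose of a dose series, to cardiomyocyte cultures from newborn rats, and their RNA was compared with that of vehicle cultures. The comparison used the 3 arrays titled as 1 µg/ml DEHP and the 3 titled as control, 6 of the 12 arrays in all. The other 6 arrays were from cultures at 10 and 50 µg/ml, 3 each, and entered the fit so that all groups shared an estimate of the spread. Cells were isolated enzymatically from the hearts of Sprague-Dawley pups aged 2 days and grown for 3 days. They then received DEHP in 0.1% dimethyl sulphoxide, or 0.1% dimethyl sulphoxide alone, for 3 days, so the solvent was common to every group. According to the submitters, replicates within a group are biological and all cells came from 1 litter, so every p-value measures the spread between cultures of that litter and not between litters.

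DEHP softens polyvinyl chloride and leaches from medical tubing and bags. Lipases and esterases cut it to a monoester, mono(2-ethylhexyl) phthalate, which is a ligand of the peroxisome proliferator-activated receptors (PPARs), nuclear receptors that induce fatty acid oxidation genes in liver and heart. Heart cultures from newborn rats hold beating cardiomyocytes together with fibroblasts, endothelial cells and some macrophages. Immediate early genes such as Fos and Egr1 encode transcription factors whose messages appear within minutes of a growth factor, stretch or stress signal, without new protein synthesis, and decay as quickly. The MAP kinase pathway and the factors SRF and CREB drive many of them.

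The deposited values were linear ratios, each probe set's value on an array divided by that probe set's median across the 12 arrays. By the values, that median was taken on the log2 scale. The ratios were analysed as log2 ratios per gene for 14324 genes. A log2 ratio of 0 is the median of the 12 arrays, and a difference of 1 is a doubling. The ratio was read as array over median, so that a higher value means more RNA, and no source used here records that direction. If it were median over array, each rise below would turn into a fall of the same amount. The level of a gene is lost in such a ratio, so it could not be checked whether the markers of heart muscle or of any other cell type were well above background. In cultures of mixed cells, fewer cells of a type and less RNA per cell cannot be told apart. Arrays of a group differed from each other with an SD of log2 differences over genes of 0.102 to 0.104 in the vehicle group and 0.109 to 0.129 at 1 µg/ml. Replicate 2 at 10 µg/ml differed from the other arrays of its dose with an SD of 0.170 and 0.202. The SD was 0.112 between those 2 and 0.120 to 0.152 within the 50 µg/ml group. Several of the counts that replicate 2 at 10 µg/ml moves are also given without it.

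At 1 µg/ml, 608 of 14324 genes passed an adjusted p of 0.05 in limma, which is 4.24% of the genes, with 359 higher (2.51%) and 249 lower (1.74%). The changes were small. The median called rise was 0.32 and the median called fall was -0.32 on the log2 scale, 76 called genes differed by more than 0.5, and 4 differed by more than 1. These 4 were Fos and Egr1, which rose, and Vof16 and Ddit4, which fell. The median standard error of a difference was 0.065, and the smallest called difference was 0.168. The median of all genes was -0.0034, a centre that quantile normalization sets and that therefore says nothing of an overall shift. At an unadjusted limma p under 0.05 there were 2889 genes (20.2%), 11.4% higher and 8.78% lower, and 51.8% of all genes lay below 0. Unadjusted counts and signs within a list are to be read against these shares. Called counts of every list below are to be read against 4.24% of genes called, 2.51% higher and 1.74% lower. In 4410 genes (30.8%) the 3 arrays at 1 µg/ml did not overlap the 3 vehicle arrays, with 16.7% higher and 14.1% lower, and all 608 called genes were among them. The smallest two-sided p that exact permutation allows for 3 arrays against 3 is 0.1, so the calls rest on the moderated model. By probe set, 893 of 27342 (3.27%) passed, 433 higher and 460 lower.

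**Figure D1:**
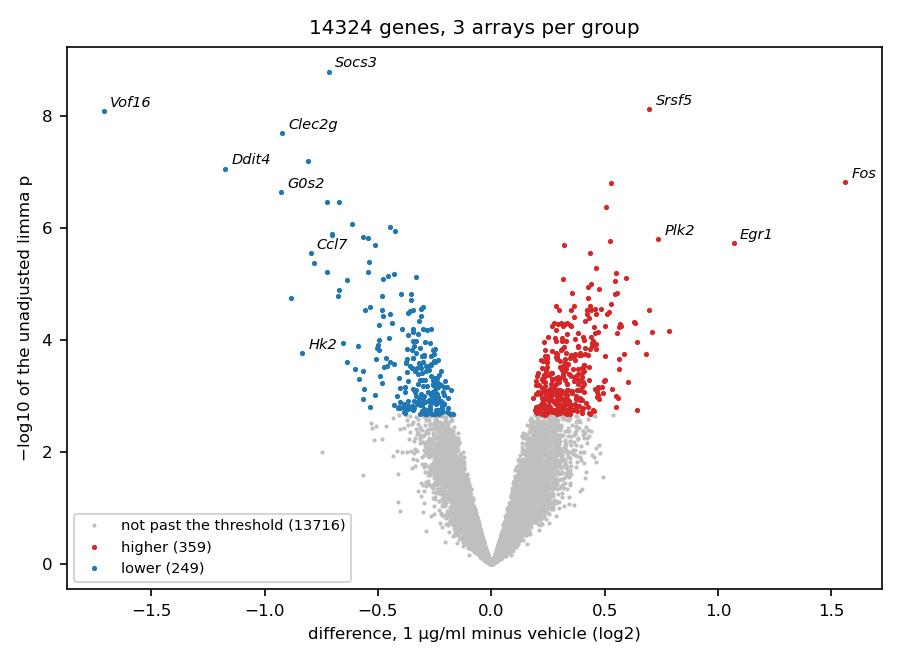
Each point is 1 of 14324 genes, with the log2 difference between 1 µg/ml DEHP and vehicle (3 arrays each) on the horizontal axis and minus log10 of the unadjusted limma p on the vertical axis. The 359 genes called higher are red and the 249 called lower are blue; Fos lies farthest to the right at 1.56 and Vof16 farthest to the left at -1.71.

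The number of called genes depended on which arrays were in the fit. It was 176, 200 and 193 without vehicle replicates 1, 2 and 3, and 193, 361 and 206 without replicates 1, 2 and 3 at 1 µg/ml. Without replicate 2 at 10 µg/ml, which takes no direct part in the comparison, it was 1282, and with the 6 compared arrays alone it was 1661, of which 607 were among the 608. Without that array 792 genes were called higher and 490 lower, against 359 and 249. Many of the lists described below also held more calls, and others, such as glycolysis and the clock genes, held the same number. Among the larger moves were 11 rises of mitosis genes in place of 3 and 10 falls of matrix genes in place of 3. There were also 10 rises in the unfolded protein response list in place of 6 and 7 of heat shock genes in place of 2. Quantile normalization applied again gave 1139 genes (585 of the 608), and array weights gave 1772. The direction of the 105 called genes named here held under each of 20 alternative treatments of the data, 12 of which left out 1 array. Omission of an array could not have reversed it, because treated and vehicle arrays do not overlap in any called gene. The calls of 44 of the 105 genes held under all 20. For genes whose call did not hold throughout, the highest adjusted p over the 20 is given as "up to".

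**Figure D2:**
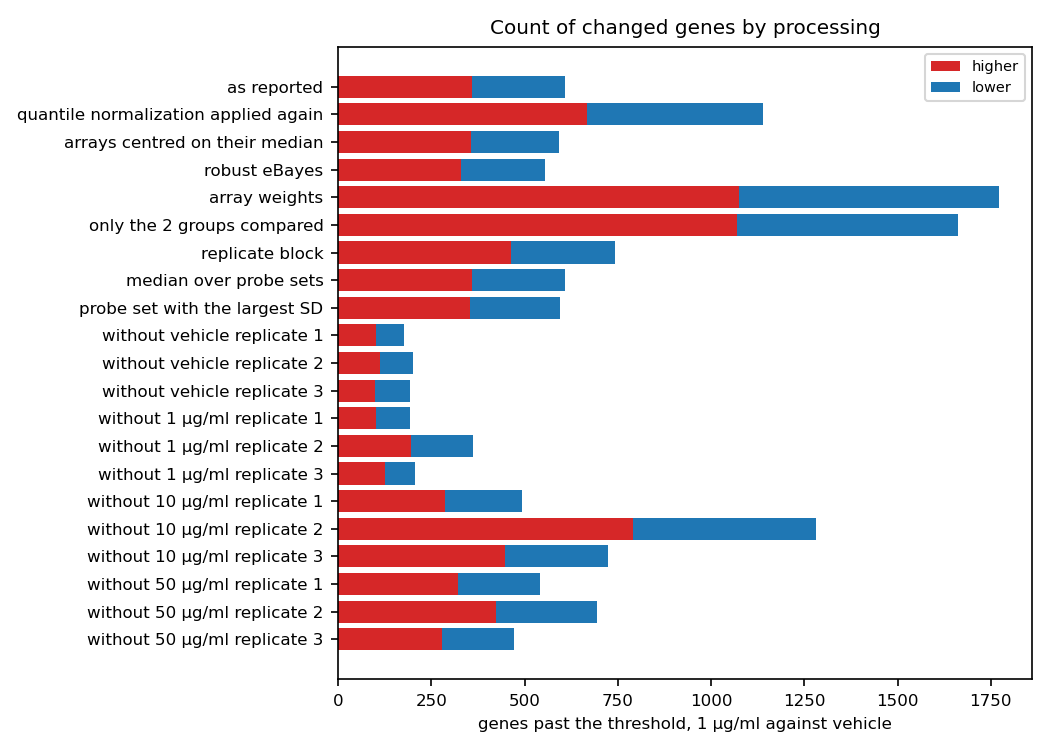
Bars give the number of genes past an adjusted p of 0.05 between 1 µg/ml and vehicle, higher in red and lower in blue, for the values as reported and for each of 20 alternatives. The count ranges from 176 without vehicle replicate 1 to 1772 with array weights, and both directions are present in each bar.

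Fos, a subunit of the AP-1 transcription factor, showed the largest rise. Its log2 ratio was -0.57, -0.44 and -0.55 in the 3 vehicle arrays and 1.08, 1.28 and 0.75 at 1 µg/ml. The groups were far apart, and the difference was 1.56 ± 0.15 (SE, n = 3 per group, limma adjusted p = 0.000277), or 2.95-fold. Egr1, a zinc finger transcription factor, had log2 ratios of -0.65, -0.68 and -0.55 with vehicle and 0.30, 0.74 and 0.28 at 1 µg/ml. Replicate 2 was the highest treated array for both genes and for Egr2. Egr1 rose by 1.07 ± 0.13 (limma adjusted p = 0.0012), and its relative Egr2 rose by 0.78 ± 0.13 (limma adjusted p = 0.00891), from between -0.36 and -0.26 to between 0.28 and 0.81.

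Promoter sequences of 4 of the changed genes are shown because they hold the letters searched for. Each line is the 250 bases before the annotated transcription start, 5′ to 3′ on the gene's strand, from RefSeq on the GRCr8 assembly, with the matched motif in capitals. Egr2 lies at chr20:21054442-21054691 on the minus strand, and its capitals mark a CArG box, the site that SRF binds, 83 bases before the start. Plk2 lies at chr2:43702286-43702535 on the plus strand, and its capitals mark the cyclic AMP response element that CREB binds, 66 bases before the start. Dusp1 lies at chr10:17184603-17184852 on the plus strand, with the same element at 124 bases. Ddit4, the second largest fall, lies at chr20:28437038-28437287 on the minus strand, with the core of the hypoxia response element in capitals at 138 bases.
Egr2: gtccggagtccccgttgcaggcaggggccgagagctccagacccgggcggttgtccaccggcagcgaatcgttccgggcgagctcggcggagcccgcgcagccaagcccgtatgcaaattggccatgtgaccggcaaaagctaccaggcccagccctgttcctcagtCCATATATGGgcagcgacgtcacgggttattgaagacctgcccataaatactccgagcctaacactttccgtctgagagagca
Plk2: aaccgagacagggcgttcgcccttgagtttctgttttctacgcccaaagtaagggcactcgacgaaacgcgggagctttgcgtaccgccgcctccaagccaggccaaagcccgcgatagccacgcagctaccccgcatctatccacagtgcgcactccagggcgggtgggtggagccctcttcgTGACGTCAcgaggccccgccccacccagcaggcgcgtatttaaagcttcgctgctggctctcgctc
Dusp1: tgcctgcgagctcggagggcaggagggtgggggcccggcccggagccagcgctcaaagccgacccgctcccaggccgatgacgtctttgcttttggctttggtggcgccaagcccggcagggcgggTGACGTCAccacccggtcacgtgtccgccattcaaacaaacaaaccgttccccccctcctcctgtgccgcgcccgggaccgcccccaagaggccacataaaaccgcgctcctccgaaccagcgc
Ddit4: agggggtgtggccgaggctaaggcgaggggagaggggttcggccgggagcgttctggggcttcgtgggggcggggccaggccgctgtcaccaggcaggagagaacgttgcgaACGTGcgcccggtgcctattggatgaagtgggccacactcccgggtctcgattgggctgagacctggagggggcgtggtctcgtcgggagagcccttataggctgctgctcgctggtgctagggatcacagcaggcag

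Promoters were held for 12 of the 14 genes with the largest rises and for 13 of the 14 with the largest falls. Both strands were searched. A CArG box was found for 3 of the 12 (Egr1, Egr2 and Ankrd49) and for 0 of the 13, against 1.5% of 33469 rat promoters of the same length. The full cyclic AMP response element, TGACGTCA, was found for 5 of the 12 (Plk2, Ankrd49, Gpcpd1, Scg2 and Dusp1) and for 1 of the 13 (Ch25h), against 1.59% of all promoters. The AP-1 site TGANTCA was found for 0 of the 12 and 2 of the 13, against 6.34%, and the TATA box TATAAA also for 0 and 2, against 12.9%. Of the called immediate early genes named by the list rule, 3 of 6 had a promoter entry, and Fos, Jun and Ier3 had none. Of the 3 with an entry, 2 held a CArG box (Egr1 and Egr2, already counted above) and 0 the cyclic AMP response element. The core ACGTG was found for 3 of the 12 and 3 of the 13, against 16.6%. The element TGACGTCA reads the same on both strands, and ACGTG on both strands overlaps itself in CACGTG, as in Dusp1. These matches describe letters in a window and were not tested as sites.

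The largest rises included further signal-induced genes. Plk2, a polo-like kinase, had log2 ratios of -0.41, -0.36 and -0.41 with vehicle and 0.37, 0.38 and 0.29 at 1 µg/ml, and rose by 0.74 ± 0.09 (limma adjusted p = 0.00114). Dusp1, a phosphatase that switches off MAP kinases, was at -0.14, -0.15 and -0.17 with vehicle and at 0.56, 0.39 and 0.38 at 1 µg/ml. Its arrays were close together within each group, and it rose by 0.60 ± 0.08 (limma adjusted p = 0.00308). Ier3, an early response gene linked to cell survival, rose by 0.69 ± 0.11 (limma adjusted p = 0.00596). Srsf5, a splicing factor of the SR family, had log2 ratios of -0.33, -0.49 and -0.38 with vehicle and 0.30, 0.29 and 0.30 at 1 µg/ml. Its 3 treated arrays were nearly equal, and with a rise of 0.70 ± 0.05 it had the smallest adjusted p among the rises named here (limma, 3.92e-05).

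Other genes of the 14 largest rises have roles away from early signalling. Scg2, which encodes the granin secretogranin II of secretory vesicles, was at 0.11, 0.39 and 0.50 with vehicle and at 0.95, 0.96 and 0.99 at 1 µg/ml, and rose by 0.63 ± 0.10 (limma adjusted p = 0.00793). Gpcpd1, an enzyme that breaks down glycerophosphocholine, also rose by 0.63 ± 0.10. The linker histone gene H1f6 rose by 0.71 ± 0.12 and Tmtc2, a transmembrane protein of the endoplasmic reticulum, by 0.64 ± 0.12 (limma adjusted p up to 0.052). The olfactory receptor Or51e1 had a difference of 0.64 ± 0.16 (limma adjusted p = 0.0458, up to 0.157), Ankrd49 of 0.68 ± 0.13 (0.0149, up to 0.067), and Taf1d, a subunit of the RNA polymerase I factor SL1, of 0.60 ± 0.13 (0.0257, up to 0.107). Of the 14, 10 kept their call under all alternatives, and the others were these last 3 and Tmtc2.

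Across the list of immediate early genes, 9 of 29 measured members rose, 1 fell and 19 did not pass, against 4.24% of all genes called, with a list median of 0.09. Beside Fos, Egr1, Egr2 and Ier3, the AP-1 partner Jun had log2 ratios of -0.16, -0.14 and -0.17 with vehicle and 0.36, 0.57 and 0.25 at 1 µg/ml, and rose by 0.55 ± 0.08 (limma adjusted p = 0.0044). The remaining 4 rises, named after their values were seen, were those of the nuclear receptor Nr4a1 (0.59), Jund (0.37), Egr3 (0.36) and Klf4 (0.27). The fall was that of Nab2, a corepressor of the Egr proteins, by 0.37 ± 0.06 (limma adjusted p = 0.00624). The median of the list minus the vehicle mean was 0.14, 0.15 and 0.12 in the treated arrays and lay between -0.02 and 0.00 in the vehicle arrays. The count of rises ran from 5 to 13 over the alternatives.

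Feedback inhibitors of MAP kinase signalling moved both ways. Of 19 measured, 2 rose and 2 fell, with a median of 0.06. Dusp10 rose with Dusp1, by 0.29 ± 0.06 (limma adjusted p = 0.0237, up to 0.087). The receptor pathway inhibitors Spry1 and Spry2 fell by 0.21 ± 0.05 and 0.22 ± 0.05 (limma adjusted p = 0.0322 and 0.0381, up to 0.120 and 0.134). Of 17 measured targets of SRF and YAP, 2 rose and 1 fell. Edn1, which encodes the vasoconstrictor peptide endothelin 1, had log2 ratios of 0.05, -0.08 and -0.01 with vehicle and 0.42, 0.83 and 0.40 at 1 µg/ml, and rose by 0.56 ± 0.10 (limma adjusted p = 0.00826). The matrix-associated growth regulators Ccn1 and Ccn2 moved apart. Ccn1 rose by 0.31 ± 0.05 and Ccn2 fell by 0.28 ± 0.05 (limma adjusted p = 0.00793 and 0.00885).

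Vof16 showed the largest fall. Its log2 ratio was 1.13, 0.67 and 1.10 with vehicle and -0.67, -0.72 and -0.83 at 1 µg/ml, a difference of -1.71 ± 0.13 (limma adjusted p = 3.92e-05), which is 3.27-fold lower. Ddit4, an inhibitor of the growth kinase complex mTORC1 that stress and hypoxia induce, was at 0.87, 0.50 and 0.44 with vehicle and at -0.49, -0.64 and -0.58 at 1 µg/ml. The groups did not come near each other, and the fall was 2.26-fold (-1.17 ± 0.11, limma adjusted p = 0.000208). Socs3, which dampens cytokine signalling through STAT3, had log2 ratios of 0.32, 0.38 and 0.40 with vehicle and -0.39, -0.27 and -0.40 at 1 µg/ml. Its fall of 0.72 ± 0.05 had the smallest adjusted p of all named genes (limma, 2.32e-05). G0s2, an inhibitor of the main triglyceride lipase, fell by 0.93 ± 0.09 (limma adjusted p = 0.000361). It was the 1 called gene among 21 measured genes of lipases and lipid droplets, or 4.76%, against 4.24% of all genes.

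**Figure D3:**
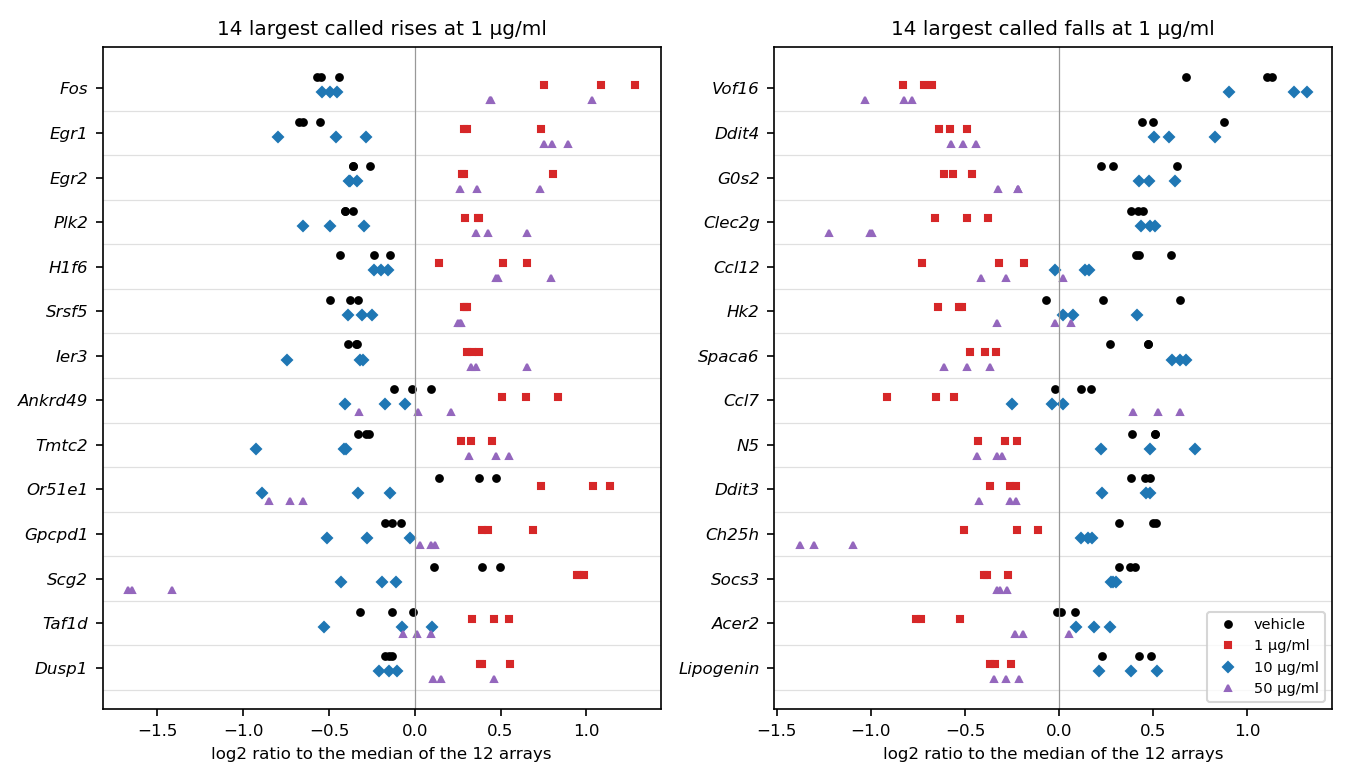
Points are log2 ratios to the median of the 12 arrays, 1 point per array, for the 14 largest called rises (left) and falls (right) at 1 µg/ml, with vehicle in black, 1 µg/ml in red, 10 µg/ml in blue and 50 µg/ml in purple. The red and black points of a gene do not overlap, which the choice of these genes fixed; Fos runs from at most -0.44 with vehicle to at least 0.75 at 1 µg/ml.

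The other genes of the 14 largest falls included secreted and stress proteins. The monocyte chemokines Ccl12 and Ccl7 fell by 0.89 ± 0.13 and 0.80 ± 0.10 (limma adjusted p = 0.00473 and 0.00154). Ddit3, the stress transcription factor CHOP, fell by 0.72 ± 0.07 (limma adjusted p = 0.000441). Ch25h, the hydroxylase that makes 25-hydroxycholesterol, fell by 0.72 ± 0.10, and Acer2, a ceramidase of the Golgi, fell by 0.70 ± 0.08. Clec2g, a C-type lectin, fell by 0.92 ± 0.07, Spaca6, a sperm membrane protein measured by 3 probe sets, by 0.81 ± 0.07, N5 by 0.78 ± 0.10 and Lipogenin by 0.70 ± 0.08. Of the 14 falls, 13 kept their call under all alternatives. The exception was Hk2, described next.

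Of 30 measured targets of hypoxia-inducible factor, 6 fell and 0 rose, with a list median of -0.03, and at an unadjusted p under 0.05 the limma counts were 9 lower and 1 higher, against 20.2% of all genes. The list median minus the vehicle mean overlapped between the groups, at 0.16, -0.05 and -0.07 with vehicle and 0.03, -0.08 and -0.09 at 1 µg/ml. Vehicle replicate 1 was the highest array of the comparison for the list and for each of the 6 called genes. Beside Ddit4 they included genes of glucose use. Hk2, the hexokinase that traps glucose in muscle, was at 0.64, 0.24 and -0.07 with vehicle and at -0.52, -0.64 and -0.53 at 1 µg/ml. The vehicle arrays were spread widely, and the fall was 0.83 ± 0.16 (limma adjusted p = 0.0147, up to 0.0503). Pfkfb3, which makes the activator of phosphofructokinase, fell by 0.67 ± 0.10 (limma adjusted p = 0.00408). Igfbp3, a carrier of insulin-like growth factors, fell by 0.60 ± 0.12, Bhlhe40, a repressor of clock genes, by 0.49 ± 0.09, and Ankrd37 by 0.35 ± 0.07 (limma adjusted p = 0.0192, 0.0134 and 0.0158, up to 0.081, 0.055 and 0.060). The core ACGTG was found in the promoters of 4 of these 6 genes, against 16.6% of all promoters. The 6 come from a list of targets of hypoxia-inducible factor, and the part of that factor in their falls was not tested.

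Among 30 measured genes of glycolysis and pyruvate use, Hk2 and Pfkfb3 were the 2 that fell and Pdk4 was the 1 that rose. Pdk4, a kinase that shuts pyruvate out of the citric acid cycle and a known PPAR target, had log2 ratios of 0.07, -0.18 and -0.10 with vehicle and 0.40, 0.70 and 0.29 at 1 µg/ml. It rose by 0.53 ± 0.12 (limma adjusted p = 0.0306, up to 0.114). Of 31 measured genes that glucocorticoids or FOXO factors are known to regulate, 7 rose and 3 fell, with a median of -0.01. The rises included Dusp1, Pdk4, the inhibitor of NF-kappaB Nfkbia (0.35 ± 0.05), the transcription factor Klf9 (0.35 ± 0.06) and the stress gene Gadd45a (0.33 ± 0.08, limma adjusted p up to 0.123). Ddit4 and the metallothionein Mt2A were among the falls.

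In the inflammatory list, 6 of 47 measured members fell and 3 rose, with a median of -0.11, and 37 of the 47 lay below 0. Without replicate 2 at 10 µg/ml the falls were 10, in a fit where 490 of 14324 genes fell in place of 249. The falls were those of Socs3 and of cytokines and chemokines. Ccl2, the main monocyte chemokine, was at 0.10, 0.08 and 0.15 with vehicle and at -0.42, -0.60 and -0.34 at 1 µg/ml, and fell by 0.57 ± 0.07 (limma adjusted p = 0.00114). Ccl7 was at 0.11, -0.02 and 0.17 with vehicle and at -0.56, -0.92 and -0.65 at 1 µg/ml. Both genes were lower in all 3 treated arrays than in any vehicle array, as were 14.1% of all genes, every gene called lower among them. The cytokine gene Tnf fell by 0.50 ± 0.09 and Ccl4 by 0.38 ± 0.07 (limma adjusted p = 0.0134 and 0.0167, up to 0.057 and 0.070). The sixth fall, named after its value was seen, was that of Il1b (-0.30), and the rises beside Nfkbia were those of Zfp36 (0.33), which shortens cytokine messages, and the prostaglandin synthase Ptgs2 (0.47). In the interferon list 1 of 34 rose, Irf9, a subunit of the interferon-activated factor, by 0.37 ± 0.07 (limma adjusted p = 0.011, up to 0.052).

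Of 31 measured markers of macrophages and other leukocytes, 3 fell, 0 rose and 28 did not pass. The median was -0.19, 28 lay below 0, and 13 were lower and 0 higher at an unadjusted p under 0.05 in limma, against 8.78% and 11.4% of all genes. The integrin chains Itgb2 and Itgam fell by 0.37 ± 0.08 and 0.27 ± 0.07, and Laptm5, a lysosomal protein of blood cells, by 0.36 ± 0.09 (limma adjusted p = 0.0202, 0.0454 and 0.0433, up to 0.084, 0.151 and 0.154). The list median minus the vehicle mean was -0.05, -0.11 and -0.32 in the treated arrays, against -0.03 to 0.05 in the vehicle arrays. Replicate 3 at 1 µg/ml was the lowest, and without it the list median was -0.13. The count of falls was 0 without vehicle replicate 1 or 3 or without replicate 1 or 3 at 1 µg/ml, where 12, 8, 13 and 8 members had an unadjusted limma p under 0.05. The part of macrophages in the falls of Tnf, Ccl2, Ccl4, Ccl7 and Ccl12 was not tested.

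Of 23 measured endothelial markers, 5 fell, against 1.74% of all genes, 0 rose and 18 did not pass. Of the 23, 19 lay below 0, and the median was -0.19. Without replicate 2 at 10 µg/ml the falls were 9, in a fit where 490 of 14324 genes fell in place of 249. Cdh5, the cadherin of endothelial junctions, was at -0.09, 0.11 and -0.03 with vehicle and at -0.50, -0.64 and -0.83 at 1 µg/ml, and fell by 0.66 ± 0.12 (limma adjusted p = 0.0118, up to 0.053). The receptor Tie1 fell by 0.59 ± 0.11, the nitric oxide synthase Nos3 by 0.49 ± 0.10, the transcription factor Sox18 by 0.47 ± 0.09 and Rasip1, needed for the vessel lumen, by 0.30 ± 0.07 (limma adjusted p up to 0.054, 0.098, 0.063 and 0.129). The list median minus the vehicle mean was -0.16, -0.19 and -0.23 in the treated arrays and between 0.00 and 0.02 in the vehicle arrays, so the 3 treated arrays were all lower. The count of falls was 0 without vehicle replicate 2 or without replicate 3 at 1 µg/ml, where 9 members had an unadjusted limma p under 0.05, and the list medians were then -0.17 and -0.20.

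Endothelial cells use Notch signalling to choose between sprouting and arterial fates. In a list of Notch and VEGF signalling, 4 of 31 measured members fell, against 1.74% of all genes, and 0 rose, with a median of -0.06. The arterial ligand Dll4 was at 0.38, 0.13 and 0.07 with vehicle and at -0.48, -0.44 and -0.41 at 1 µg/ml, a fall of 0.64 ± 0.13 (limma adjusted p = 0.0167, up to 0.067). The ligand Jag1 fell by 0.33 ± 0.05 (limma adjusted p = 0.00308). The endothelial receptor Notch4 fell by 0.33 ± 0.08 and the feedback gene Nrarp by 0.38 ± 0.10 (limma adjusted p up to 0.107 and 0.168). Gja4, the connexin of arterial endothelium, fell by 0.32 ± 0.06 (limma adjusted p = 0.00947). It was the 1 called gene of 31 ion channels and connexins, or 3.23%, against 4.24% of all genes. The part of endothelial cell number in these falls was not tested.

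Of 43 measured matrix genes, 3 fell, 0 rose and 40 did not pass, with 36 below 0 and a median of -0.09. At an unadjusted p under 0.05 in limma 18 were lower and 1 higher, against 8.78% and 11.4% of all genes. Fbln1, a fibulin of elastic fibres and basement membranes, was at -0.15, -0.16 and 0.11 with vehicle and at -0.53, -0.45 and -0.53 at 1 µg/ml, and fell by 0.44 ± 0.07 (limma adjusted p = 0.00793). The microfibril proteins Ltbp2 and Mfap5 fell by 0.32 ± 0.08 and 0.26 ± 0.06 (limma adjusted p up to 0.133 and 0.118). The proteases Mmp9 and Plau fell by 0.51 ± 0.10 and 0.41 ± 0.09 (limma adjusted p up to 0.072 and 0.098), the 2 calls among 35 proteases and inhibitors. Col1a1 had a difference of -0.08 ± 0.05 and Mmp2 of -0.05 ± 0.04, and neither passed. Of 24 fibroblast markers 3 fell (Fbln1, Mfap5 and Pi16, the last with a limma adjusted p up to 0.166) with a median of -0.06, and 0 of 17 smooth muscle and pericyte markers passed, with 2 lower and 1 higher at an unadjusted p under 0.05 in limma. Among 35 TGF-beta genes Id2 and Bmp2 rose by 0.31 ± 0.07 and 0.37 ± 0.09, and Id1 fell by 0.25 ± 0.05 (limma adjusted p up to 0.099, 0.150 and 0.090).

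**Figure D4:**
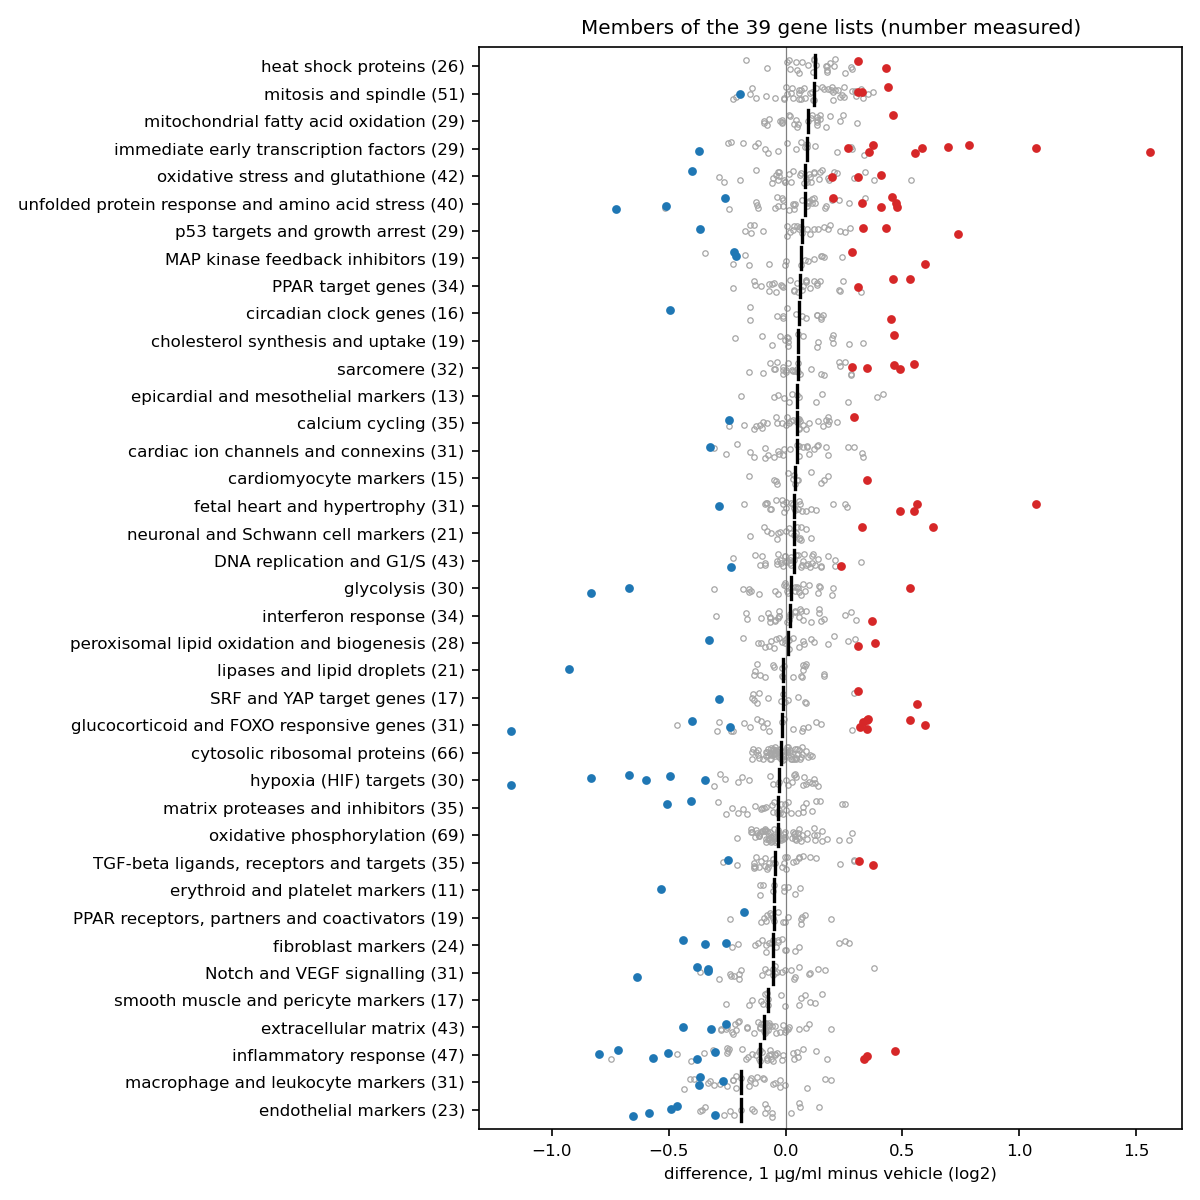
Each point is a measured member of 1 of 39 gene lists, placed by its log2 difference between 1 µg/ml DEHP and vehicle, with called rises in red, called falls in blue and the rest grey, and the black bar marks the list median. The heat shock list is at the top with a median of 0.13 and the endothelial list at the bottom with -0.19, and the number of measured members stands in brackets.

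Stress genes moved in both directions. In the list of the unfolded protein response and amino acid stress, 6 of 40 measured members rose and 3 fell, with a median of 0.08. The falls were of Ddit3, of Trib3, a pseudokinase that CHOP induces, which fell by 0.51 ± 0.06 (limma adjusted p = 0.0012), and of Herpud1, a factor of protein degradation at the endoplasmic reticulum, which fell by 0.26 ± 0.05 (limma adjusted p up to 0.062). Ppp1r15a, which restores translation after stress, rose by 0.46 ± 0.07, as did the chaperone Dnajb9 (0.47 ± 0.08) and Cth, the enzyme that makes cysteine from cystathionine (0.47 ± 0.07, limma adjusted p = 0.00408). The 3 others that rose, named after their values were seen, were Asns (0.33), Psat1 (0.41) and Dnajb11 (0.20). Trib3 was at 0.01, 0.16 and -0.06 with vehicle and at -0.51, -0.53 and -0.38 at 1 µg/ml. Cth was at 0.13, -0.08 and 0.14 with vehicle and at 0.59, 0.56 and 0.46 at 1 µg/ml.

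Of 26 measured heat shock proteins and cochaperones, 24 lay above 0 with a median of 0.13, and 2 passed. Dnajb4 rose by 0.43 ± 0.06 and Stip1, which joins the chaperones HSP70 and HSP90, by 0.31 ± 0.06 (limma adjusted p = 0.0039 and 0.0112). At an unadjusted p under 0.05 in limma 13 of the list were higher and 0 lower, against 11.4% and 8.78% of all genes. Without replicate 2 at 10 µg/ml 7 of the list rose, in a fit where 792 of 14324 genes rose in place of 359. In the oxidative stress list, 3 of 42 rose and 1 fell. The glutathione transferase Gstm2 rose by 0.41 ± 0.07, the hydrogen peroxide enzyme catalase (Cat) by 0.31 ± 0.06 and Srxn1, which repairs peroxiredoxins, by 0.20 ± 0.04 (limma adjusted p up to 0.051, 0.085 and 0.106), and Mt2A had a difference of -0.40 ± 0.10 (limma adjusted p = 0.0446, up to 0.171). Of 29 p53 targets and growth arrest genes, 3 rose (Plk2, Gadd45a and Tp53inp1, the last with a limma adjusted p up to 0.108) and 1 fell, the nuclease Aen, by 0.37 ± 0.06 (limma adjusted p = 0.00981). Among 16 clock genes the repressor Nr1d1 rose by 0.45 ± 0.08 (limma adjusted p = 0.0112, up to 0.051).

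The PPAR receptors did not pass the test. Ppara had log2 ratios of 0.04, 0.04 and 0.01 with vehicle and 0.12, -0.13 and -0.06 at 1 µg/ml, which overlap, and its difference was -0.05 ± 0.10 (95% interval from -0.26 to 0.16). Ppard was at -0.06 ± 0.05 (from -0.17 to 0.05) and Pparg at -0.08 ± 0.08 (from -0.24 to 0.09). Their dimer partner Rxra fell by 0.18 ± 0.04 (limma adjusted p = 0.0311, up to 0.113), the 1 call among 19 receptors, partners and coactivators. Of 34 PPAR target genes, 3 rose, against 2.51% of all genes, and 0 fell, with a median of 0.06. The 3 were Pdk4, Cat and the mitochondrial thioesterase Acot2, which rose by 0.46 ± 0.09 (limma adjusted p = 0.0134, up to 0.060). Several well known targets did not pass, among them Cpt1a, the entry enzyme of mitochondrial fatty acid oxidation (0.13 ± 0.06, interval from 0.0045 to 0.26), the fatty acid transporter Cd36 (0.08 ± 0.15, from -0.26 to 0.41), the lipase inhibitor Angptl4 (-0.13 ± 0.09, from -0.34 to 0.08) and the lipid droplet protein Plin2 (-0.01 ± 0.07, from -0.17 to 0.14).

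Other lists of lipid and energy metabolism held few calls. The share called was 3.45% of the mitochondrial fatty acid oxidation list and 5.26% of the cholesterol list, against 4.24% of all genes. Acot2 was the 1 rise among 29 genes of mitochondrial fatty acid oxidation, whose median was 0.10. Of 28 peroxisomal genes, Cat and the biogenesis factor Pex3 (0.38 ± 0.09) rose and Pex26 (-0.33 ± 0.08) fell (limma adjusted p for the Pex genes up to 0.127 and 0.114). Idi1, an isomerase of the isoprenoid pathway, was the 1 call among 19 cholesterol genes, with a rise of 0.47 ± 0.11 (limma adjusted p = 0.0321, up to 0.121). Of 69 subunits of oxidative phosphorylation 0 passed in limma, with 4 higher and 1 lower at an unadjusted p under 0.05, and the list median was -0.03.

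Among 32 measured sarcomere genes, 5 rose, against 2.51% of all genes, and 0 fell, with a median of 0.05. Myh3, the embryonic myosin heavy chain, was at 0.27, 0.79 and 0.56 with vehicle and at 1.18, 0.85 and 1.25 at 1 µg/ml, so the highest vehicle array lay just under the lowest treated array. Its difference was 0.55 ± 0.13 (limma adjusted p = 0.0345, up to 0.178). The actin filament nucleator Lmod2 was at -0.28, -0.28 and -0.39 with vehicle and at 0.31, 0.01 and 0.12 at 1 µg/ml, and rose by 0.46 ± 0.07 (limma adjusted p = 0.00624). Xirp2, a protein of the intercalated disc, rose by 0.49 ± 0.11, the giant spring protein titin (Ttn) by 0.35 ± 0.09 and the M-band protein Myom1 by 0.28 ± 0.07 (limma adjusted p up to 0.118, 0.159 and 0.168). Ttn was the 1 call among 15 cardiomyocyte markers, whose median was 0.04, against -0.19 for both the endothelial and the macrophage lists.

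The adult myosin chains Myh6 and Myh7 had differences of 0.16 ± 0.08 (95% interval from -0.02 to 0.35) and 0.11 ± 0.08 (from -0.07 to 0.29), and the natriuretic peptides Nppa and Nppb of 0.04 ± 0.05 (from -0.07 to 0.14) and 0.00 ± 0.09 (from -0.20 to 0.21). Of the panel of 28 genes of fatty acid use, contraction, coupling and matrix, 26 were measured, Pdk4 passed and 25 did not. The differences of these 25 ran from -0.18 for Timp1 to 0.18 for the calcium release channel Ryr2, their 95% intervals reached from -0.35 (Gja1) to 0.41 (Cd36), and 0 of the intervals reached a difference of 0.5 in either direction. In calcium cycling, 1 of 35 rose and 1 fell, or 5.71% called against 4.24% of all genes. The called genes were the channel subunit Cacnb2 (0.29 ± 0.06) and the adenylyl cyclase Adcy6 (-0.24 ± 0.05), with limma adjusted p up to 0.113 and 0.098. In the fetal heart and hypertrophy list, 4 of 31 rose (Egr1, Edn1, Xirp2 and Myh3), against 2.51% of all genes, and Ccn2 fell.

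Of 51 measured genes of mitosis and the spindle, 3 rose, 1 fell and 47 did not pass, with 41 above 0 and a median of 0.12. At an unadjusted p under 0.05 in limma 20 were higher and 3 lower, against 11.4% and 8.78% of all genes. The spindle factor Tpx2 was at 0.02, 0.00 and 0.00 with vehicle and at 0.40, 0.34 and 0.21 at 1 µg/ml, and rose by 0.31 ± 0.06 (limma adjusted p = 0.0188, up to 0.080). The kinetochore subunits Ndc80 and Nuf2 had differences of 0.44 ± 0.11 and 0.33 ± 0.08, close to the threshold (limma adjusted p = 0.0496 and 0.0488, up to 0.154 and 0.173), and the cell cycle factor Foxm1 of -0.19 ± 0.05 (0.0475, up to 0.150). The count of mitosis genes that rose was 19 when the 6 compared arrays were fitted alone and 11 without replicate 2 at 10 µg/ml. Over all 14324 genes 1069 and 792 rose in these fits, in place of 359. The mitosis count was 0 without any 1 of the vehicle arrays or without replicate 1 or 2 at 1 µg/ml. In those fits 15 to 21 members had an unadjusted limma p under 0.05. Without replicate 3 at 1 µg/ml the mitosis count was 1. In DNA replication 1 of 43 rose (Chaf1b, a histone chaperone) and 1 fell (Cdt1, which licenses replication origins), with limma adjusted p up to 0.107 and 0.140. The share called was 4.65% of that list, against 4.24% of all genes. Of 66 cytosolic ribosomal proteins 0 passed in limma, with 1 lower and 0 higher at an unadjusted p under 0.05.

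Over the 39 lists, 4 had 0 calls. In 32 of the 39 the share of measured members called was above the 4.24% of all genes. The lists were chosen with earlier results of these data known, so a share above 4.24% does not set a list apart. In 16 lists members moved in both directions, in 8 there were rises without falls, and in 11 falls without rises. Among lists of other cell types, 2 of 21 neuronal and Schwann cell markers rose, Scg2 and the neuronal hydrolase Uchl1 (0.33 ± 0.06, limma adjusted p up to 0.075). The platelet factor Pf4 was the 1 call among 11 erythroid and platelet markers, with a fall of 0.53 ± 0.13 (limma adjusted p = 0.0435, up to 0.159), and 0 of 13 epicardial markers passed in limma, with 2 higher and 1 lower at an unadjusted p under 0.05.

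The higher doses were compared with the same vehicle arrays, and their values are given side by side. Fos differed from the vehicle by 1.56 at 1 µg/ml, 0.02 at 10 µg/ml and 1.16 at 50 µg/ml. Vof16 differed by -1.71, 0.19 and -1.85, Socs3 by -0.72, -0.08 and -0.67, and Srsf5 by 0.70, 0.08 and 0.66 at the same doses. At 10 µg/ml 0 genes passed in limma, with 899 at an unadjusted p under 0.05, and at 50 µg/ml 2520 genes (17.6%) passed, 8.75% higher and 8.84% lower. Tested directly, 2001 genes (14%) differed between 10 and 1 µg/ml, 683 higher (4.77%) and 1318 lower (9.2%) at 10 µg/ml. All 28 of the largest changes differed in this test, in the direction opposite to their change at 1 µg/ml, and the test reuses the arrays that chose them. The largest differences, 10 minus 1 µg/ml, included Vof16 at 1.90 ± 0.13, Fos at -1.54 ± 0.15, Myh3 at -1.44 ± 0.13 and Or51e1 at -1.42 ± 0.16. Without replicate 2 at 10 µg/ml these were 2.02, -1.54, -1.44 and -1.21, and all 28 differences still passed. The count of 2001 was 880 without replicate 2 at 10 µg/ml, 944 and 820 without replicates 1 and 3 at 1 µg/ml, and 697 with only these 6 arrays fitted.

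Between 50 and 1 µg/ml, 3562 genes (24.9%) differed, 1641 higher (11.5%) and 1921 lower (13.4%) at 50 µg/ml. Against vehicle, 9 of the 14 largest rises at 1 µg/ml were also called higher at 50 µg/ml, and 2 were called lower. Of the 14 largest falls, 11 were also called lower at 50 µg/ml and 1 was called higher. Over all genes 8.75% were called higher and 8.84% lower at 50 µg/ml. These counts reuse the vehicle arrays that chose the genes. In the direct test of 50 against 1 µg/ml, 6 of the 14 rises differed. Or51e1, Scg2, Ankrd49, Gpcpd1 and Taf1d were lower at 50 µg/ml than at 1 µg/ml, and Egr1 was higher. Of the 14 largest falls, 6 differed. Ccl7, Acer2, Hk2 and G0s2 were higher at 50 µg/ml, and Clec2g and Ch25h were lower still. The largest differences upwards were of genes not called at 1 µg/ml, among them Pla2g2a, a secreted phospholipase, higher by 3.28 ± 0.24, and neuropeptide Y (Npy), higher by 2.40 ± 0.12 (limma adjusted p = 1.6e-06 and 9.4e-08). The largest downwards was that of Scg2, at -2.54 ± 0.10.

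Of the 136 named genes, 16 passed at both 1 and 50 µg/ml in opposite directions and also differed between the doses. The difference between the doses follows from the opposite signs against the same vehicle arrays and adds no support. The 136 include genes chosen by their difference between doses, and such genes were not counted over all genes. Scg2 was at 0.95, 0.96 and 0.99 at 1 µg/ml and at -1.65, -1.67 and -1.42 at 50 µg/ml, with vehicle between 0.11 and 0.50. Aldh1a1, which makes retinoic acid, was at 0.14, 0.06 and 0.10 with vehicle, at 0.59, 0.67 and 0.63 at 1 µg/ml and at -1.49, -1.42 and -1.40 at 50 µg/ml. It rose by 0.53 ± 0.05 at 1 µg/ml (limma adjusted p = 0.000277) and its difference, 50 minus 1 µg/ml, was -2.07 ± 0.05 (limma adjusted p = 1.6e-10). Cdh5, Ccl2 and Ccl7 were among the genes that went the other way, while the chemokines Ccl12 and Ccl4 fell at both doses. Cdh5 was at 0.42, 0.66 and 0.62 at 50 µg/ml, above all vehicle arrays, and below all of them at 1 µg/ml. Ccl2 was at 0.70, 0.68 and 0.83 at 50 µg/ml and between -0.60 and -0.34 at 1 µg/ml. By list, endothelial markers differed between 50 and 1 µg/ml with 15 of 23 up at 50 µg/ml and 2 down, while 22 of 47 inflammatory genes were higher at 50 µg/ml and 4 lower, and 40 of 51 mitosis genes were lower and 0 higher. Macrophage markers were lower in 27 of 31 and higher in 1. Over all genes 11.5% were higher and 13.4% lower at 50 µg/ml than at 1 µg/ml.

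**Figure D5:**
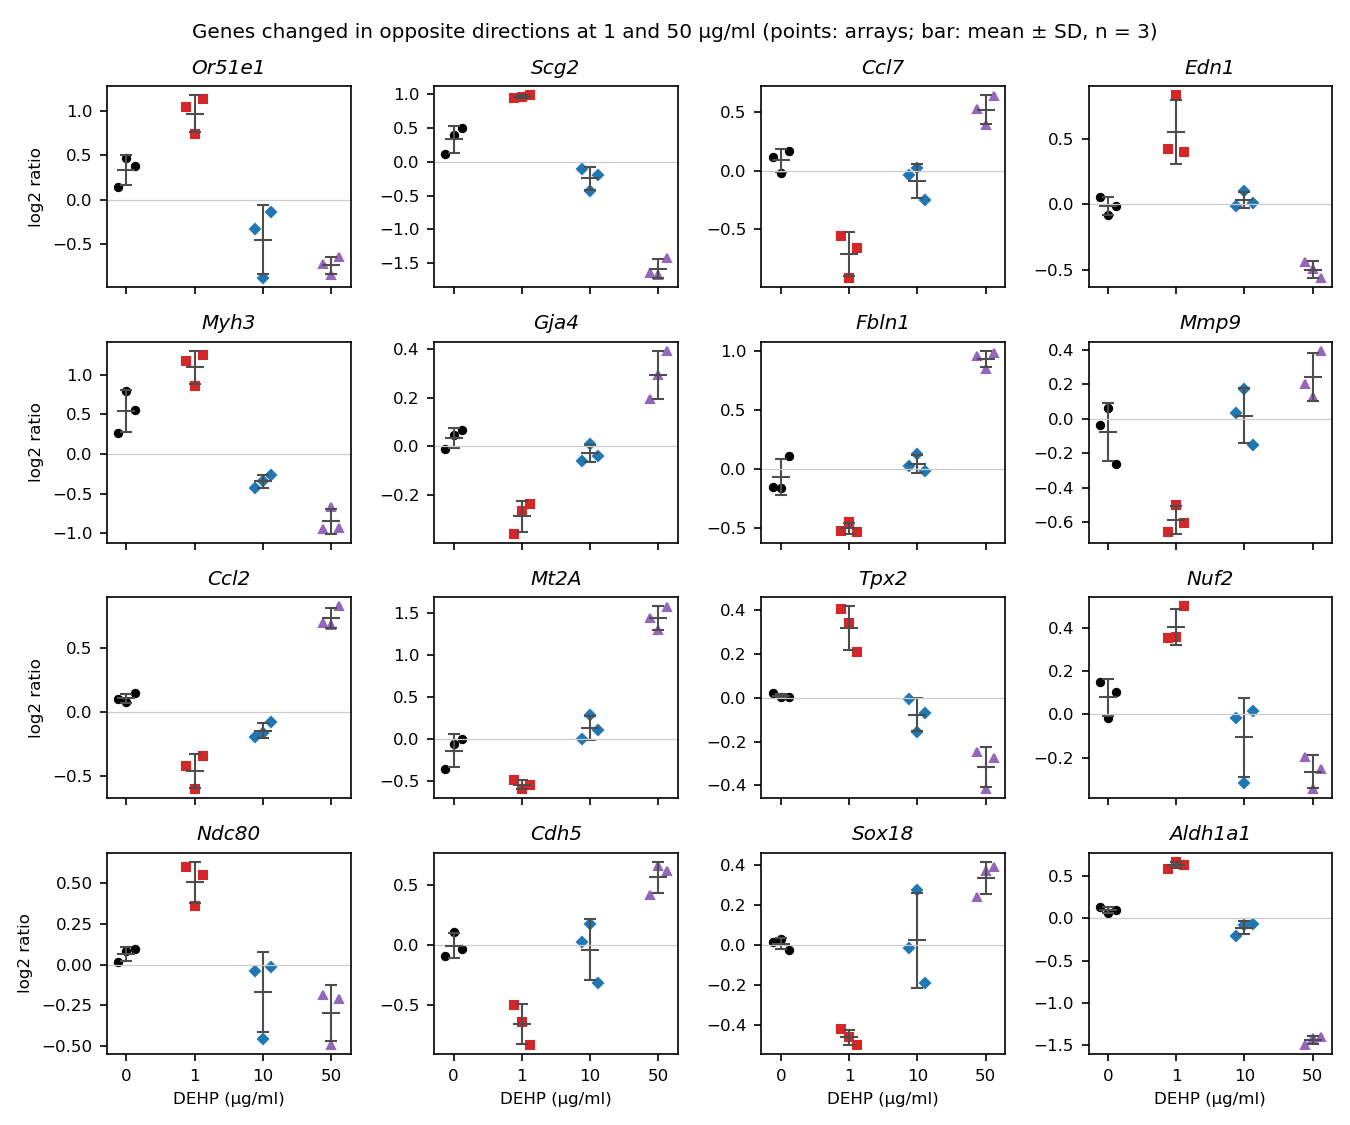
Each panel shows 1 gene that passed in opposite directions at 1 and 50 µg/ml, with the DEHP dose on the horizontal axis (evenly spaced, not to scale) and the log2 ratio to the median of the 12 arrays on the vertical axis, whose range differs between panels. Points are arrays and bars are mean ± SD over 3 arrays; Scg2 and Myh3 are highest and Ccl7, Ccl2 and Fbln1 lowest at 1 µg/ml.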

How the data were processed

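RNA of 12 cultures was measured on Affymetrix arrays, 1 per culture, from 5 µg of total RNA. Per the submitters' processing notes the authors used RMA (background correction, quantile normalization, probe summary), with no version named. The values the authors deposited are linear ratios. The midpoint of each probe set's 12 log2 values was 0 to within 1e-06, as a median taken on the log2 scale gives. That midpoint is the same for either direction of the ratio. The ratios run from 0.165 to 12.2. The design had assumed log2 values, which were computed here; no scan date or detection call was analysed.

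Of 27342 probe sets, 15097 had 1 gene symbol in the platform annotation, 323 several and 11922 none; the GRCr8 table held 15067 by Entrez identifier and changed 0 symbols. A gene is the mean of its probe sets (499 of 14324 genes had several). limma 3.58.1 in R 4.3.3 was fitted to all 12 arrays (8 residual degrees of freedom, prior 4.50), two-sided, with Benjamini-Hochberg adjustment over all genes and a threshold of 0.05. The fit was tested on simulated data. Depth does not apply to arrays, and their number limits the precision.

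Named genes were the 14 largest called rises and falls with groups that do not overlap, up to 6 called members per list by smallest p, a panel of 28 genes, and the 4 largest rises and falls between 1 µg/ml and each other dose. The comparison and the 39 lists (1197 of 1415 entries measured) were chosen with earlier results of these data known. Same-numbered vehicle and 1 µg/ml arrays had correlated deviations of -0.03, -0.07 and -0.21, so numbers were not taken as pairs. Alternatives were renormalization, centring, robust moderation, array weights, fewer groups, a replicate block, other probe set summaries and omission of each array.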

Additional observations from a re-analysis of the deposited data

Results flagged for a closer look

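Among the 136 named genes, 16 passed limma's threshold at 1 and at 50 µg/ml against the vehicle with opposite signs. Their difference between the doses also passed, as it must for opposite signs against a shared vehicle. The 136 include genes chosen by their difference between doses, and such genes were not counted over all genes. Groups of 3 arrays are too small for a test of a stray array, so none was made. The values below are log2 differences, 50 minus 1 µg/ml.

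Higher at 1 µg/ml than with vehicle and lower at 50 µg/ml were Scg2 (-2.54), Aldh1a1 (-2.07), the embryonic myosin Myh3 (-1.94), Or51e1 (-1.71), Edn1 (-1.05) and the spindle genes Ndc80 (-0.80), Nuf2 (-0.669) and Tpx2 (-0.632). Lower at 1 µg/ml and higher at 50 µg/ml were Mt2A (1.98), Fbln1 (1.44), Ccl7 (1.23), Ccl2 (1.19), Mmp9 (0.825) and the endothelial genes Cdh5 (1.23), Sox18 (0.791) and Gja4 (0.583). The call at 1 µg/ml was lost under 12 of the 20 alternatives for Ndc80, 11 for Nuf2 and 8 each for Mt2A and Or51e1. It held under all 20 for Scg2, Aldh1a1, Edn1, Fbln1, Ccl7, Ccl2 and Gja4, and was lost under 2 to 5 for the rest.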

How the results depend on the processing

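Of the 105 named genes called at 1 µg/ml, 44 kept their call under all 20 alternatives and 0 changed direction. Omission of an array could not change a direction, because treated and vehicle arrays do not overlap in any called gene. The number that lost their call was 47, 50 and 49 without vehicle replicates 1, 2 and 3. It was 49, 31 and 51 without 1 µg/ml replicates 1, 2 and 3, and at most 14 under any other alternative. The count of 608 genes became 1139 with quantile normalization applied again, 1772 under array weights and 1661 when the fit held just the 6 compared arrays, and ranged from 176 to 1282 when 1 array was left out. The replicate block gave 742 genes. Probe sets (893) became 1692, 2542 and 2178 under the first 3 of these and ranged from 283 to 1906 without 1 array. At 10 µg/ml against vehicle, 0 genes became 15 with renormalization and 90 with array weights, and 0 to 1 without 1 array. At 50 µg/ml against vehicle the range without 1 array was 1731 to 3153. Between 10 and 1 µg/ml, 2001 became 3155 with array weights and 697 with only these groups, and 820 to 2694 without 1 array. Between 50 and 1 µg/ml, 3562 became 2321 with renormalization, and 2432 to 4370 without 1 array. The dim probe filter and the prior that follows the mean were not run, because the values keep no level. List medians near 0 (cholesterol, glycolysis, hypoxia, interferon and lipase lists) changed sign under some alternatives. All cells came from 1 litter.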

Other observations

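Of 893 called probe sets, 360 carried no gene symbol. These are 3.02% of the probe sets without a symbol, against 3.27% of all probe sets, and 117 of them were higher and 243 lower. Probe set 10887336 rose by 1.80 ± 0.19, from between -0.83 and -0.44 with vehicle to between 0.96 and 1.27 at 1 µg/ml, and probe set 10930620 rose by 1.52 ± 0.11. Probe set 10922843 had a difference of -1.87 and probe set 10745931 of -1.64.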
